A study of Arabidopsis thaliana with 18 samples.

Results

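The genes described here were 10 loci of Arabidopsis thaliana, namely 8 protein kinase genes of the PINOID (PID) family and the genes of 2 calcium-binding proteins that bind PID. They were chosen by locus from the 28642 loci counted. The rule used no measured value, but earlier results of these data were known when it was set. The PID clade held PID (AT2G34650), WAG1 (AT1G53700), WAG2 (AT3G14370) and PID2 (AT2G26700). The D6PK clade held D6PK (AT5G55910), D6PKL1 (AT4G26610), D6PKL2 (AT5G47750) and D6PKL3 (AT3G27580). The calcium partners were PBP1 (AT5G54490) and TCH3 (AT2G41100). RNA came from whole leaves of the first pair of Col-0 plants grown on agar without treatment at 16 days after stratification (DAS), when these leaves expand, and at 9 DAS, when their cells proliferate. P10 (35S::PID10) and P21 (35S::PID21) are transgenic lines in which the constitutive 35S promoter drives the PID cDNA, and wild-type plants (WT) served as their control. At each day P10 and WT were measured in 3 libraries, replicates 1 to 3, and P21 in 2, replicates 2 and 3. The labels call these biological replicates and do not say how many plants each one pooled, and the promoter is active in most cell types, so that the lines do not model PID in the cells where it is normally on.

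PID, WAG1, WAG2 and PID2 are plant AGC kinases. PID and the WAG kinases phosphorylate the central loop of PIN auxin efflux carriers and thereby influence to which side of a cell the carriers are directed, and PID is best known for its part in the formation of organs at the flanks of the shoot meristem. The D6PK kinases phosphorylate PIN carriers at the basal plasma membrane and activate auxin efflux, and act in tropic growth. PBP1, a small protein with an EF hand, raises PID activity when calcium is present, whereas TCH3, a calmodulin-like protein first found as the product of a touch-inducible gene, lowers it.

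Libraries held 1193042 to 4695692 unique gene reads (median 2631344), and the lowest total was that of P10 replicate 1 at 16 DAS. Levels are given as CPM, the unique gene reads relative to a library total scaled with TMM factors. Of 16499 genes that passed the filter on low counts, a gene was called where its adjusted p from edgeR was under 0.05 and its log2 fold change lay beyond 0.75. The tissue was checked with marker genes. The sum of 3 mesophyll genes (RBCS1A, LHCB1.3 and CA1) ranged from 30800 to 38900 CPM in P10, 53000 to 54500 CPM in P21 and 42200 to 51500 CPM in WT at 16 DAS, and from 36100 to 47100 CPM over all libraries of 9 DAS. P10 thus lay below all other libraries of 16 DAS. The sum of 2 phloem companion cell genes (SUC2 and APL) ranged from 431 to 534 CPM in P10, 235 to 313 CPM in P21 and 368 to 404 CPM in WT at 16 DAS, with no overlap, and from 68.7 to 88.4, 91.8 to 93.5 and 43.8 to 70.3 CPM in the same order at 9 DAS. The sum of 3 guard cell genes ranged from 54.5 to 64.6 CPM in P10, 85.8 to 86.2 CPM in P21 and 92.9 to 119 CPM in WT at 16 DAS, and from 67.8 to 79.8, 86.6 to 86.8 and 49.0 to 59.9 CPM in the same order at 9 DAS. Of 4 meristem genes, WUS was at 0 in all 16 libraries, whereas KNAT1 had reads in 10, STM in 8 and CLV3 in 3. Their sum was at most 0.395 CPM in P10 and 0 in P21 and WT at 16 DAS, and 1.25 to 5.78 CPM in P10, 5.07 to 5.15 CPM in P21 and 4.43 to 8.95 CPM in WT at 9 DAS. The root gene PLT1 had 1 read in 1 library, and the root gene PYK10 had 10.6 to 14.5 CPM in P10, 21.4 to 46.9 CPM in P21 and 6.68 to 27.5 CPM in WT at 16 DAS, and 94.2 to 106, 81.8 to 110 and 199 to 217 CPM in the same order at 9 DAS. The part of such shifts in the results on the members was not tested, and in whole leaves fewer cells of a type and less RNA per cell cannot be told apart. Libraries also differed in CCA1, a gene of the circadian clock. Among those of 9 DAS, P10 replicate 2 and WT replicate 2 had less CCA1 (38.9 and 26.1 CPM) than the other libraries of that day (78.7 to 259 CPM), and at 16 DAS all libraries had 556 to 670 CPM. Of 8 clock genes, all tested, none was called in any of the 4 comparisons of a line with WT, and none had an unadjusted p under 0.05 in edgeR (DESeq2 was not run on the gene lists). Of all genes, 0.127% to 15.8% were called in these comparisons. The median log2 fold change of the clock genes was -0.84 in P21 against WT at 9 DAS, against 0.02 over all genes tested. It lay between -0.08 and 0.1 in the other comparisons with WT. The absence of calls is thus not read as a like clock state of the lines and WT. At 16 DAS relative to 9 DAS, 2 of the clock genes were called in P10 (CCA1 and PRR9), 1 in P21 (PRR9) and 3 in WT (CCA1, PRR9 and TOC1), genes named after their values were seen. Of all genes, 31.0%, 23.7% and 36.0% were called there in the same order. The medians of the clock genes between the days were -0.17 in P10, 1.54 in P21 and -0.41 in WT. The part of the clock genes in the differences of the members between the days was not tested. The column headers give each library 2 index sequences, of which the second is called the library index here. WT and P10 at 9 DAS carried one library index and all other libraries another. Index and group thus cannot be told apart in P21 against WT or against P10 at 9 DAS. The same holds for 16 against 9 DAS within WT and P10, and for the change of P21 against WT between the days.

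The counted gene regions of the 10 members spanned 528 bases (PBP1) to 2771 bases (D6PKL1) in TAIR10, introns included. The regions were PID at chr2:14589760-14591788, WAG1 at chr1:20048586-20050115, WAG2 at chr3:4797845-4799504, PID2 at chr2:11368596-11371099 and D6PK at chr5:22639844-22642354. Those of the others were D6PKL1 at chr4:13424549-13427319, D6PKL2 at chr5:19339703-19342361, D6PKL3 at chr3:10217417-10219976, PBP1 at chr5:22121404-22121931 and TCH3 at chr2:17137829-17139612. In the RefSeq annotation of TAIR10.1, WAG1, WAG2 and PBP1 had 1 exon, PID had 2, PID2, D6PK, D6PKL1 and D6PKL2 had 3, D6PKL3 had 2 to 3 depending on the transcript, and TCH3 had 2 to 5 in 7 transcripts. Since family members resemble each other, their longest spliced transcripts were compared base by base. The longest run shared by any pair was 35 bases, found between WAG1 and WAG2 and again between D6PK and D6PKL1. Both are shown with 15 bases on each side on the strand of the gene, the shared run in capitals, because they mark how far the closest copies are identical.
WAG1, chr1:20049738-20049802, plus strand: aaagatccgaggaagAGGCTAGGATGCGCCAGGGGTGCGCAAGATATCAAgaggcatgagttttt
WAG2, chr3:4798282-4798346, minus strand: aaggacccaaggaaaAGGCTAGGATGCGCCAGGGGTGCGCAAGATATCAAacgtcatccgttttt
D6PK, chr5:22640182-22640246, minus strand: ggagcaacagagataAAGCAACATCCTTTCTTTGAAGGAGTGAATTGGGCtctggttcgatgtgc
D6PKL1, chr4:13427003-13427067, plus strand: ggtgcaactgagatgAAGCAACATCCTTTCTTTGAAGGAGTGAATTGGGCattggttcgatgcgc
No 50-base window of 9 members matched the 5 nuclear chromosomes exactly outside the gene itself, and 9 of 2231 windows of TCH3 (0.403%) did. Overlapping genes were a further limit, because the sources used here do not state whether strand was used in counting. On the opposite strand, AT2G41105 covered 827 bases of the counted region of TCH3, AT4G26620 covered 291 bases of that of D6PKL1, and AT5G47740 covered 73 bases of that of D6PKL2. AT5G47740 had at most 0.357 CPM in any library, whereas AT4G26620 had 11.9 to 29.4 CPM. AT2G41105 was not analysed here, so that reads from it and from TCH3 cannot be told apart.

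PID, the kinase that the lines carry as a transgene, rose in both lines at both days. At 16 DAS it had 753, 747 and 879 CPM in P10, 367 and 629 CPM in P21, and 3.18, 4.21 and 3.72 CPM in WT. At 9 DAS it had 508, 445 and 521 CPM in P10, 937 and 959 CPM in P21, and 4.71, 5.91 and 5.35 CPM in WT. Every library of a line lay above every WT library of its day, with at least 833 PID reads in each library of P10 and P21 against at most 17 in a WT library. PID was 210-fold higher in P10 than in WT (95% interval 145 to 304, log2 fold change 7.71, SE 0.24) and 132-fold higher in P21 than in WT (90.7 to 192, 7.04, SE 0.24) at 16 DAS. At 9 DAS it was 91.5-fold higher in P10 (64.3 to 130, 6.52, SE 0.23) and 177-fold higher in P21 (122 to 255, 7.46, SE 0.24), and the adjusted p over these comparisons was at most 6.3e-14. Reads of the transgene and of the PID locus cannot be told apart here, because the construct carries the PID cDNA. The WT libraries held 5 to 17 PID reads each, so that the level of PID in WT rests on few reads.

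**Figure D1:**
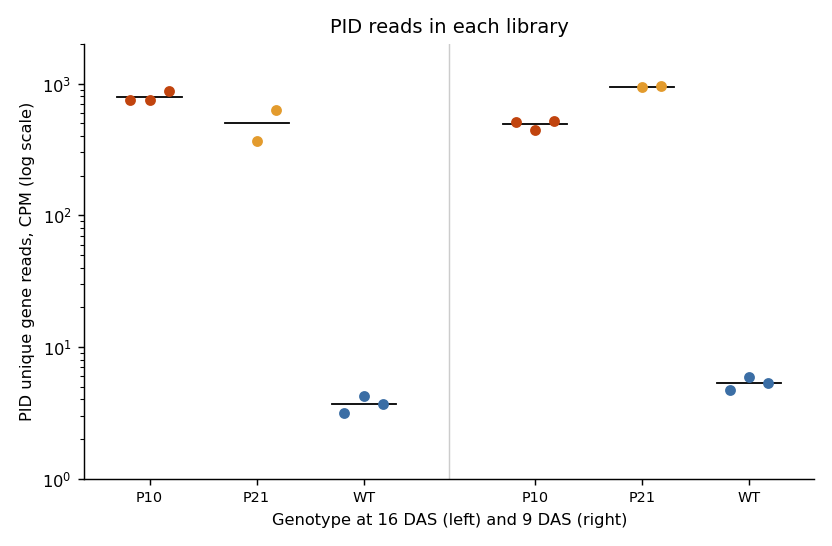
Unique gene reads of PID in CPM on a log axis for P10, P21 and WT at 16 DAS (left) and 9 DAS (right), with 1 dot per library and a line at the group mean. Libraries of the lines lie between 367 and 959 CPM and those of WT between 3.18 and 5.91 CPM.

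The order of the lines in PID differed between the days. At 16 DAS P10 averaged 793 ± 74.8 CPM (SD, n = 3) and P21 498 ± 186 CPM (SD, n = 2), a log2 difference of 0.67 (SE 0.18, adjusted p = 0.013) that stayed under the fold threshold. It was 0.33 without P21 replicate 2 (adjusted p = 0.29) and 1.09 without P21 replicate 3 (adjusted p = 0.0019), and the adjusted p lay between 0.0019 and 0.29 over the alternatives. At 9 DAS P10 averaged 491 ± 40.3 CPM (SD, n = 3) and P21 948 ± 14.9 CPM (SD, n = 2), a log2 difference of -0.95 (SE 0.18, 95% interval -1.34 to -0.55). None of the 8 members tested was called between P10 and P21 at 9 DAS, where 0.0364% of all genes were called, although 2 members (PID and D6PKL3) had an unadjusted p under 0.05 in edgeR and DESeq2 called 1, PID. The PID difference at 9 DAS had an unadjusted p of 2.8e-05 and an adjusted p of 0.058 (0.0052 to 0.61 over the alternatives), and its libraries did not overlap between the lines. At 16 DAS 1 of the 8 members, D6PKL3, was called between P10 and P21, beside 14.9% of all genes.

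Within the lines, the difference of PID between the days had opposite signs. In P21 it fell by 0.93 on the log2 scale at 16 DAS relative to 9 DAS (SE 0.20, adjusted p = 0.0016), and it was the only member called there, beside 23.7% of all genes. The difference was -0.59 without P21 replicate 2 at 16 DAS, under the fold threshold (adjusted p = 0.047), and -1.37 without replicate 3 (adjusted p = 0.00015), within a range of 0.00015 to 0.06 over the alternatives. In P10 it was 0.69 higher at 16 DAS than at 9 DAS (SE 0.16, adjusted p = 0.0018), under the fold threshold, and in WT the difference was -0.51 (95% interval -1.16 to 0.15). The difference of P10 from WT grew by 1.2 on the log2 scale at 16 DAS relative to 9 DAS (SE 0.34, adjusted p = 0.044), and with D6PKL3 it made 2 of 8 members called for that change, beside 4.7% of all genes. This call was lost without any 1 of 13 of the 16 libraries, with values of 1.08 to 1.34 and adjusted p of 0.021 to 0.15 over all alternatives. The difference of P21 from WT changed by -0.42 (95% interval -1.23 to 0.38). None of the 8 members was called for the change of P21, none had an unadjusted p under 0.05, and DESeq2 called none, where edgeR called 3.18% of all genes.

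Set against gene length, PID was the most abundant member in both lines and stood among the lower ranks in WT. In CPM per kilobase of counted region it averaged 391 ± 36.8 in P10 (SD, n = 3) and 245 ± 91.4 in P21 (SD, n = 2) at 16 DAS, and the next member, D6PK, 43.0 ± 9.09 in P10 and 44.3 ± 12.3 in P21. At 9 DAS PID averaged 242 ± 19.9 in P10, where TCH3 came next, and 467 ± 7.33 in P21, where D6PK came next. The WT leaves at 16 DAS had TCH3 first at 50.9 ± 32.0, followed by D6PK at 47.6 ± 2.66, D6PKL1 at 14.4 ± 1.10, D6PKL2 at 9.36 ± 1.34, PBP1 at 7.93 ± 4.69, D6PKL3 at 3.64 ± 0.844 and PID at 1.82 ± 0.253 (SD, n = 3). Below them came WAG1 at 0.879 ± 0.630, PID2 at 0.174 ± 0.107 and WAG2, which had no read. In that order the libraries of TCH3 and D6PK, D6PKL2 and PBP1, PBP1 and D6PKL3, and WAG1 and PID2 overlapped, and those of the other neighbours did not. At 9 DAS the order in WT was TCH3 (58.6 ± 12.8), D6PK (33.5 ± 7.62), D6PKL2 (14.1 ± 0.603), D6PKL1 (12.4 ± 2.50), PBP1 (5.41 ± 2.62), D6PKL3 (4.37 ± 0.547), PID (2.62 ± 0.295) and PID2 (2.00 ± 1.36), with WAG1 (0.395 ± 0.219) and WAG2 (0.368 ± 0.464) last. There D6PKL2 and D6PKL1 overlapped, as did PBP1 and D6PKL3, PID and PID2, PID2 and WAG1, and WAG1 and WAG2, and the other neighbours did not. The counted regions include introns, and RefSeq exons covered 72.3% of that of D6PKL1 and 85.6% of that of D6PKL2. The order of close neighbours can thus depend on the length used. The mean PID level per kilobase stood at percentile 99.0 of all genes tested in P10, 97.9 in P21 and 15.1 in WT at 16 DAS, and at percentile 98.4 in P10, 99.3 in P21 and 18.5 in WT at 9 DAS.

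Of the summed level of the 8 kinases per kilobase, PID made up 81.7 to 84.9% in P10, 68.1 to 82.6% in P21 and 1.95 to 2.80% in WT at 16 DAS. At 9 DAS its share was 78.5 to 81.1% in P10, 87.5 to 88.1% in P21 and 3.30 to 4.87% in WT. The summed level of the other 7 kinases was 78.5 ± 4.31 CPM per kilobase in P10 (n = 3), 74.9 ± 13.6 in P21 (n = 2) and 76.0 ± 3.57 in WT (SD, n = 3) at 16 DAS, and the ranges overlapped. At 9 DAS the same sum was 62.3 ± 9.55 in P10, 64.9 ± 3.68 in P21 and 67.0 ± 9.79 in WT, again with overlap. PID alone stood at 4.45 to 5.63 times the sum of the other 7 in P10, 2.14 to 4.75 times in P21 and 0.0199 to 0.0288 times in WT at 16 DAS.

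**Figure D2:**
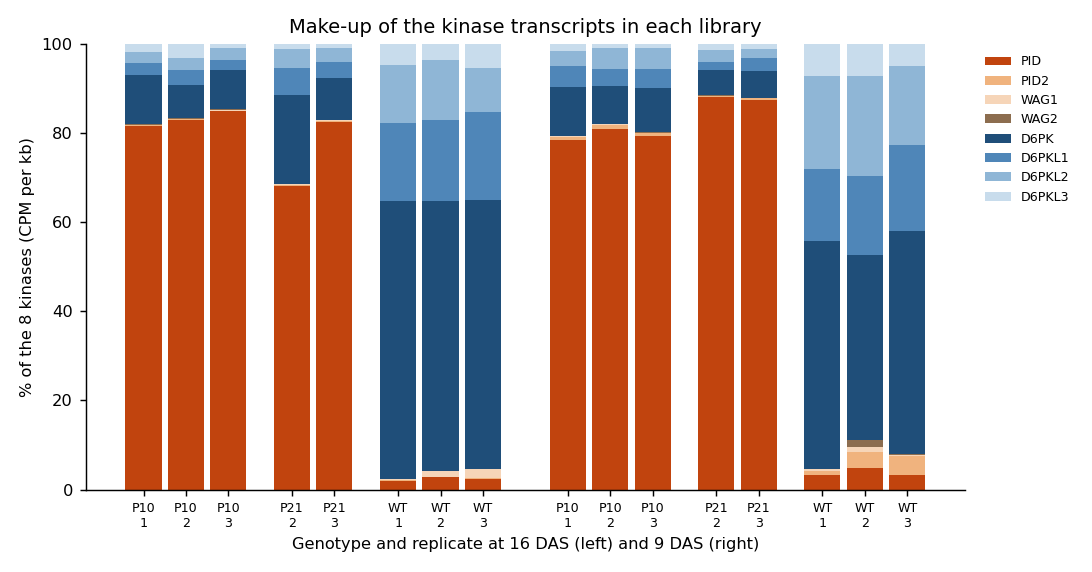
Share of each of the 8 kinases in their summed CPM per kilobase, in percent, with 1 stacked bar per library (genotype and replicate number) at 16 DAS (left) and 9 DAS (right). PID fills 68.1 to 88.1% of the bars of P10 and P21 and 1.95 to 4.87% of those of WT, where D6PK is the largest block.

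The other kinases of the PID clade were scarce. WAG1, which acts with WAG2 in root waving and apical hook growth, had 0 to 4 reads per library in P10, 0 to 2 in P21 and 1 to 6 in WT. WAG2 had 5 reads in P10 and none in P21 and WT summed over the libraries of 16 DAS, against 6 reads in P10, 5 in P21 and 4 in WT at 9 DAS. A sum of 0 allows up to 3 reads over a group, which is 0.459 CPM in P21 and 0.303 CPM in WT at 16 DAS, and the 5 reads of P10 correspond to a mean of 0.937 CPM, so that at this depth no direction is read from them. Both WAG genes were removed by the filter on low counts, and in the fit without that filter neither was called in any comparison. Thus 8 of the 10 members were tested.

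PID2, a close relative of PID that is also known as an AGC3 kinase, fell with age in WT and P10 and did not pass the test against WT. At 16 DAS it had 0.819, 1.53 and 1.58 CPM in P10, 1.31 and 1.23 CPM in P21, and 0.318, 0.247 and 0.743 CPM in WT. At 9 DAS it had 5.81, 6.08 and 5.62 CPM in P10, 3.09 and 4.43 CPM in P21, and 1.41, 5.42 and 8.20 CPM in WT. The libraries of the days did not overlap in any genotype, but each value rests on few reads, with 1 to 4 per library at 16 DAS and 3 to 23 at 9 DAS. PID2 fell by 2.03 on the log2 scale in P10 (SE 0.57, adjusted p = 0.0071) and fell by 3.69 in WT (SE 0.70, adjusted p = 0.00023) at 16 DAS relative to 9 DAS, and the difference in P21 was -1.54 (95% interval -3.10 to 0.01). The adjusted p lay between 0.0019 and 0.19 in P10 and between 2.8e-05 and 0.025 in WT over the alternatives. The sum of the meristem genes was also lower at 16 DAS in every genotype, and its part in this result was not tested. In a fit of WT alone PID2 did not pass the filter. Against WT it did not pass the test in either line, with log2 fold changes of 1.84 (95% interval -0.13 to 3.80) in P10 and 1.70 (-0.39 to 3.79) in P21 at 16 DAS, and of 0.18 (-0.83 to 1.2) and -0.44 (-1.62 to 0.73) in the same order at 9 DAS. The 250 bases before the RefSeq start of PID2 are shown because this gene had the largest difference between the days in WT among the members tested. None of the searched motifs named with D6PKL3 was found in them, and no base is in capitals.
PID2, chr2:11368224-11368473 of TAIR10.1, plus strand: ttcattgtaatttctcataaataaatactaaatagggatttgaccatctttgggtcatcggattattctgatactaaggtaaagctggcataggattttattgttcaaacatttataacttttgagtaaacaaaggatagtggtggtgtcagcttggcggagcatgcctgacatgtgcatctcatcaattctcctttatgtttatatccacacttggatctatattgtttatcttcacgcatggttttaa

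D6PK, the founder of its clade, was the most abundant kinase of the set in WT leaves and did not pass the test against WT in any line. At 16 DAS it had 127, 82.6 and 114 CPM in P10, 133 and 89.5 CPM in P21, and 126, 112 and 120 CPM in WT. Its levels at 9 DAS were 87.6, 57.1 and 80.6 CPM in P10, 74.2 and 82.6 CPM in P21, and 90.5, 62.5 and 99.2 CPM in WT. The lines and WT overlapped at both days, and the 95% intervals of the 4 comparisons with WT lay between -0.62 and 0.40 on the log2 scale. D6PK was 0.51 higher at 16 DAS than at 9 DAS in P10 (SE 0.20, adjusted p = 0.050) and 0.50 higher in WT (SE 0.20, adjusted p = 0.048), both under the fold threshold. Its lowest libraries at 9 DAS were replicate 2 of P10 and of WT, the pair low in CCA1, and with both left out the differences between the days were 0.34 in P10 (adjusted p = 0.18, of a range of 0.017 to 0.27) and 0.33 in WT (adjusted p = 0.18, of a range of 0.027 to 0.26).

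D6PKL1 and D6PKL2, close relatives of D6PK, varied little. D6PKL1 had 31.2 to 42.0 CPM in P10, 38.6 and 45.5 CPM in P21 and 37.1 to 43.1 CPM in WT at 16 DAS, and 28.6 to 40.1, 27.5 and 41.2, and 29.1 to 42.1 CPM in the same order at 9 DAS. Its largest log2 difference from WT was -0.15 (95% interval -0.60 to 0.30), in P10 at 16 DAS. D6PKL2 had 31.9, 31.0 and 34.8 CPM in P10, 29.3 and 29.7 CPM in P21, and 27.3, 26.5 and 20.8 CPM in WT at 16 DAS. Every library of the lines thus lay above every WT library at that day, yet the log2 fold changes were 0.36 in P10 (95% interval -0.02 to 0.75, adjusted p = 0.14) and 0.22 in P21 (-0.20 to 0.64, adjusted p = 0.79). In WT D6PKL2 was 0.56 lower at 16 DAS than at 9 DAS (SE 0.17, adjusted p = 0.010), under the fold threshold. Between the days, 3 of 8 members (PID2, D6PKL3 and TCH3) were called in P10, beside 31.0% of all genes, and 1 of 8, PID2, in WT, beside 36.0%.

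D6PKL3, the fourth kinase of that clade, rose in P10 at 16 DAS. It had 19.6, 36.3 and 13 CPM in P10, 8.32 and 9.20 CPM in P21, and 9.86, 6.93 and 11.1 CPM in WT at 16 DAS. At 9 DAS it had 12.1, 6.38 and 6.87 CPM in P10, 18.6 and 14.2 CPM in P21, and 12.7, 10.8 and 9.99 CPM in WT. At 16 DAS the P10 libraries lay above all P21 and WT libraries and replicate 2 stood well above the other P10 libraries, whereas at 9 DAS it was P21 that lay above all other libraries. The log2 fold change of P10 against WT at 16 DAS was 1.38 (SE 0.34, adjusted p = 0.0061), a 2.60-fold difference (95% interval 1.54 to 4.39), and that of P10 against P21 was 1.4 (SE 0.38, adjusted p = 0.013). Without P10 replicate 2 the difference from WT was 0.82 (adjusted p = 0.098, the highest of a range of 0.0013 to 0.098 over the alternatives), and that from P21 was 0.84 (adjusted p = 0.13, of a range of 0.0032 to 0.13). The difference from P21 was also lost where either P21 library of 16 DAS was left out, with 1.33 without replicate 2 (adjusted p = 0.080) and 1.46 without replicate 3 (adjusted p = 0.091). D6PKL3 was 1.41 higher at 16 DAS than at 9 DAS in P10 (SE 0.33, adjusted p = 0.0020), or 0.85 without P10 replicate 2 at 16 DAS (adjusted p = 0.053, of a range of 0.0003 to 0.13). The difference of P10 from WT grew by 1.72 between the days (SE 0.49, adjusted p = 0.047), a call lost without any 1 of 14 of the 16 libraries (1.16 to 1.83, adjusted p 0.014 to 0.16 over all alternatives). The mesophyll and guard cell sums of P10 lay below and its phloem sum above those of all other libraries of 16 DAS, and their part in this result was not tested. In P21 the log2 fold change against WT was -0.02 (95% interval -0.93 to 0.88) at 16 DAS and 0.56 (-0.26 to 1.37) at 9 DAS. Together with PID and TCH3, D6PKL3 made 3 of 8 members called in P10 against WT at 16 DAS, beside 15.8% of all genes. In the other comparisons with WT only PID of the 8 members was called, beside 0.127% of all genes in P21 at 16 DAS, 0.339% in P10 at 9 DAS and 5.41% in P21 at 9 DAS.

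The 250 bases before the RefSeq start of D6PKL3 are shown because it was the 1 kinase among the members, besides PID, that was called higher in a line than in WT. The capitals mark the 1 match found there, TGTCTC, the auxin response element, on the strand of the gene with its first base 189 bases before the start.
D6PKL3, chr3:10220062-10220311 of TAIR10.1, minus strand: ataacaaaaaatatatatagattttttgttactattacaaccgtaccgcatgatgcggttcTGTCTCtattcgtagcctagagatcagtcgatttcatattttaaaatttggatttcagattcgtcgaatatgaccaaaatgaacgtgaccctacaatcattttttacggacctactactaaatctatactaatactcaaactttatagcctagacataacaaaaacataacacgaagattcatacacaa
The motifs searched on both strands were TGTCTC, the G-box CACGTG, the evening element AAAATATCT and CGCGT, part of the site bound by calmodulin-binding transcription activators. Among 27443 promoters of the same length, 10.9% held TGTCTC, 6.49% CACGTG, 2.36% AAAATATCT and 6.87% CGCGT. Among the 10 members, TGTCTC was found only in D6PKL3 and CACGTG only in PBP1, and these matches are a description of the letters.

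**Figure D3:**
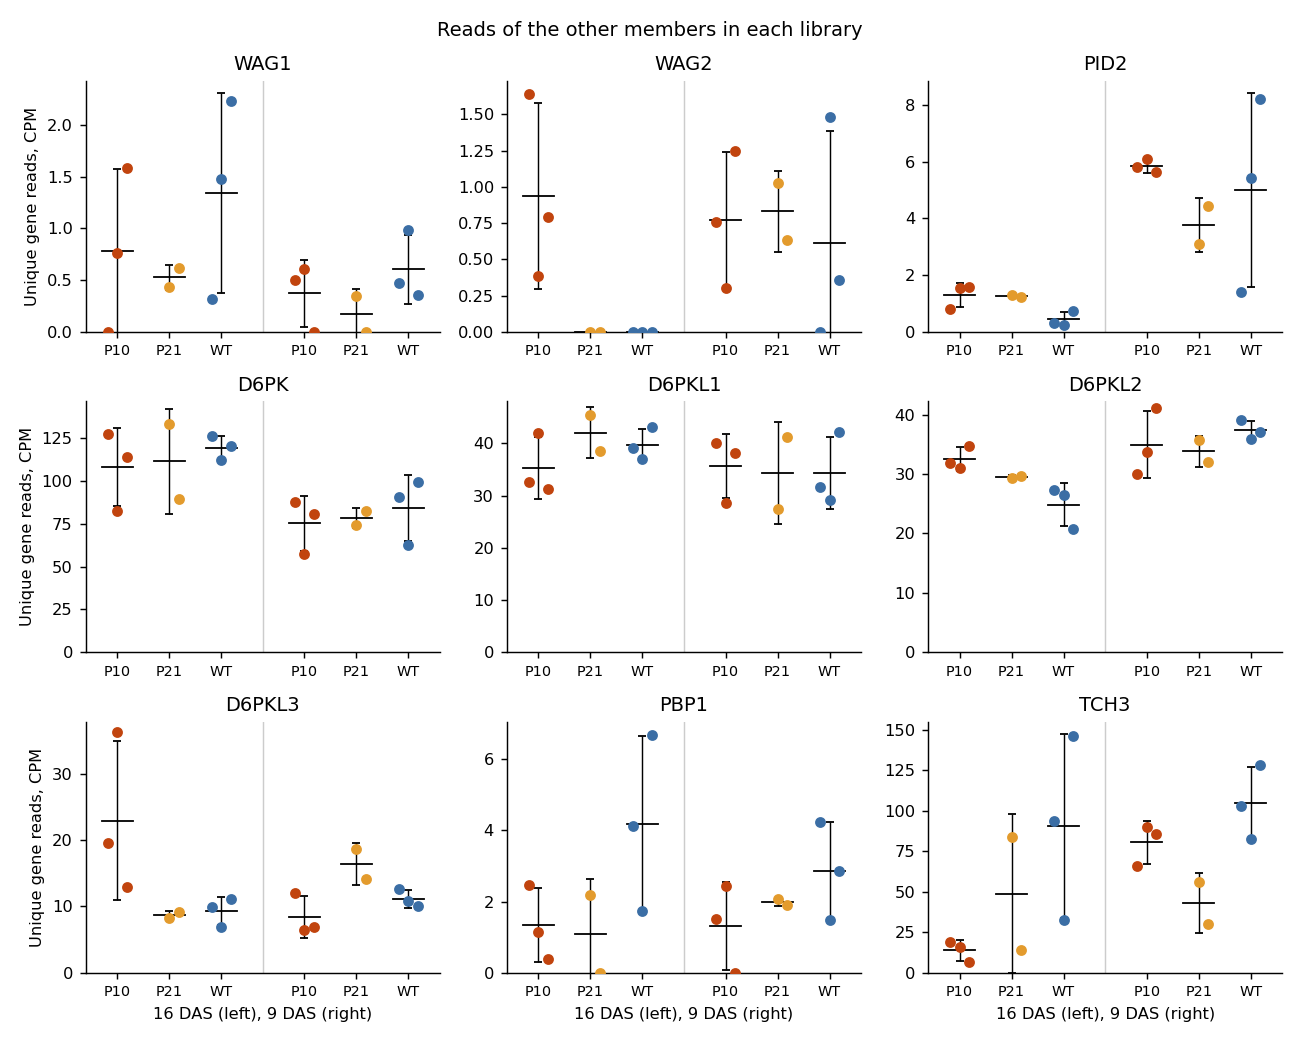
Unique gene reads in CPM of the 9 members other than PID, 1 panel each, for P10, P21 and WT at 16 DAS (left) and 9 DAS (right); dots are libraries, lines are means and bars are 1 SD, cut at 0. D6PKL3 of P10 at 16 DAS lies at 13 to 36.3 CPM and TCH3 at 6.71 to 18.8 CPM, while D6PK and D6PKL1 of the lines overlap with WT.

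PBP1, the partner that raises PID activity, was found at a low level and did not pass the test in any comparison. It had 2.46, 1.15 and 0.395 CPM in P10, 2.19 and 0 CPM in P21, and 4.13, 1.73 and 6.69 CPM in WT at 16 DAS. PBP1 at 9 DAS had 1.51, 2.43 and 0 CPM in P10, 2.06 and 1.90 CPM in P21, and 4.24, 1.48 and 2.85 CPM in WT. No library held more than 13 PBP1 reads, and the lines and WT overlapped at both days. PBP1 passed the filter on low counts only through WT libraries, and in 14 of the 16 fits that left out 1 library. No direction is thus read from its fold changes against WT. Its log2 fold changes against WT were -1.68 in P10 (95% interval -3.60 to 0.24) and -1.93 in P21 (-4.07 to 0.20; -0.76 without P21 replicate 3, while without replicate 2 the P21 library left has no PBP1 read) at 16 DAS, and -0.89 (-2.65 to 0.87) and -0.53 (-2.40 to 1.35) in the same order at 9 DAS. The counted region of PBP1 began 302 bases after its RefSeq start.

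TCH3, the partner that lowers PID activity, fell in P10 at 16 DAS. It had 18.8, 16.1 and 6.71 CPM in P10, 83.6 and 14.1 CPM in P21, and 93.5, 32.4 and 146 CPM in WT at 16 DAS. TCH3 at 9 DAS had 65.6, 90.0 and 85.6 CPM in P10, 56.0 and 29.8 CPM in P21, and 103, 82.7 and 128 CPM in WT. All P10 libraries lay below all WT libraries at 16 DAS, P21 spread over both, and WT itself spread from 32.4 to 146 CPM. The log2 fold change of P10 against WT was -2.73 (SE 0.75, 95% interval -4.40 to -1.05, adjusted p = 0.025), and without any 1 library it lay between -3.18 and -2.25. The call was lost without P10 replicate 2 (-2.94, adjusted p = 0.062), P10 replicate 3 (-2.35, adjusted p = 0.10), WT replicate 1 (-2.68, adjusted p = 0.062) or WT replicate 3 (-2.25, adjusted p = 0.067) of 16 DAS, and in the fit of only these groups (-2.72, adjusted p = 0.071), within a range of 0.00077 to 0.10 over the alternatives. In P10 TCH3 fell by 2.59 at 16 DAS relative to 9 DAS (SE 0.75, adjusted p = 0.017), by 2.22 without P10 replicate 3 at 16 DAS (adjusted p = 0.076, of a range of 4.1e-05 to 0.28), and in WT the difference was -0.26 (95% interval -1.64 to 1.13). Against WT, P21 had a log2 fold change of -0.88 (95% interval -2.51 to 0.75) at 16 DAS, or -2.63 without P21 replicate 2 and -0.07 without replicate 3 (adjusted p 0.32 to 1.0 over the alternatives), and of -1.29 (-2.92 to 0.33, adjusted p = 0.34) at 9 DAS, and P10 of -0.39 (-1.77 to 0.99) at 9 DAS. At 9 DAS both P21 libraries lay below every P10 and WT library. The difference between P10 and P21 at 16 DAS, -1.84 (95% interval -3.67 to -0.02), did not pass the test (adjusted p = 0.15), and was -0.10 without P21 replicate 2 and -2.68 without replicate 3 (adjusted p 0.05 to 0.97 over the alternatives). At 16 DAS the mesophyll and guard cell sums of P10 lay below and its phloem sum above those of all other libraries. P21, with TCH3 at 83.6 and 14.1 CPM, had the highest mesophyll sums and the lowest phloem sums of that day. The part of these sums in the result on TCH3 was not tested.

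**Figure D4:**
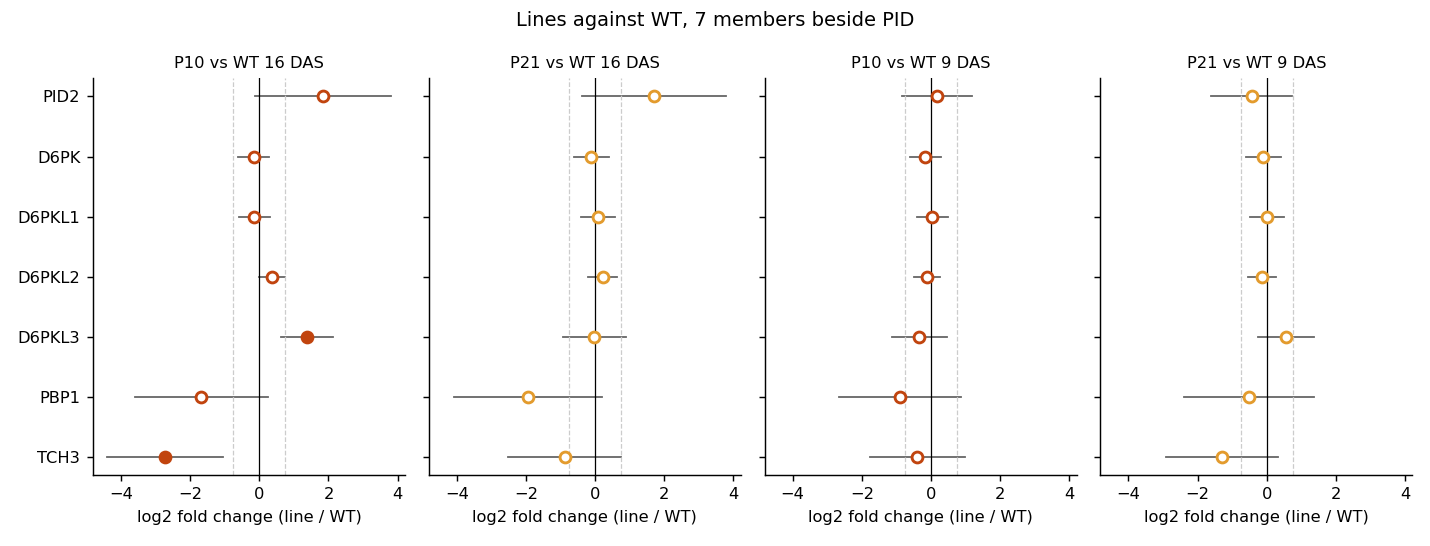
Log2 fold changes of the 7 members beside PID that were tested, for each line against WT at 16 DAS (left panels) and 9 DAS (right panels), with 95% intervals; filled dots were called and dashed lines mark the fold threshold of 0.75. The filled dots are D6PKL3 at 1.38 and TCH3 at -2.73, both in P10 at 16 DAS.

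The 250 bases before the RefSeq start of TCH3 are shown because it was the 1 member that fell in a line. They lie 792 bases before the counted region, since RefSeq starts the gene further upstream, and they hold none of the searched motifs.
TCH3, chr2:17136787-17137036 of TAIR10.1, plus strand: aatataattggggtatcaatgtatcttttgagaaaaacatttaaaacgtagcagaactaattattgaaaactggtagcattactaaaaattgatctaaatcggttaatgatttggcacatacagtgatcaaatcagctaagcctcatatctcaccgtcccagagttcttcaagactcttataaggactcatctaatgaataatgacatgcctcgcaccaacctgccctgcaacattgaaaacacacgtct

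TCH3 stands in a row of genes for calcium sensors on chromosome 2, between AT2G41090, which encodes a calmodulin-like protein, and CAM2 (AT2G41110), a calmodulin gene whose RefSeq model is separated from that of TCH3 by 482 bases. CAM2 had 10.6 to 18.0 CPM in P10, 35.9 and 42.5 CPM in P21 and 41.1 to 55.7 CPM in WT at 16 DAS, and its log2 fold change was -1.82 in P10 against WT (SE 0.25, adjusted p = 5e-05) and -1.52 in P10 against P21 (SE 0.28, adjusted p = 0.00071). AT2G41090, named after its values were seen, had 73.7 to 232 CPM in P10, 221 and 234 CPM in P21 and 354 to 516 CPM in WT, with a log2 fold change of -1.56 in P10 against WT (SE 0.38, adjusted p = 0.013). The longest run shared by TCH3 and CAM2 was 19 bases. Of 13 tested genes in a list of 23 other calmodulins, calmodulin-like proteins and relatives of PBP1, 6 fell and none rose in P10 at 16 DAS, with a median log2 fold change of -0.59 against 0.02 over all genes tested, of which 15.8% were called there. Besides CAM2 and AT2G41090 these were AT4G27280, a close relative of PBP1 (-2.35, SE 0.59), TCH2, another touch-inducible calmodulin-like gene (-1.65, SE 0.43), and, named after their values were seen, CML23 (-1.43, SE 0.48) and CAM9 (-0.95, SE 0.20). AT4G27280 had 4.97 to 13.1 CPM in P10, 15 and 44.2 CPM in P21 and 20.0 to 64.7 CPM in WT at 16 DAS, so that this relative fell where PBP1 itself did not pass the test. In P21 none of the 13 was called at 16 DAS (none with an unadjusted p under 0.05 in edgeR), beside 0.127% of all genes. Their median in P21 against WT was -0.23, against 0.00 over all genes tested. Between P10 and P21 at 16 DAS 3 of the 13 were called, all lower in P10, with a median of -0.54, beside 14.9% of all genes. At 9 DAS 2 were called in P21, beside 5.41% of all genes, CAM2 (-0.98, SE 0.26) and AT2G46600, another relative of PBP1 (0.80, SE 0.24, adjusted p = 0.050 after rounding). In P10 none was called at 9 DAS (3 with an unadjusted p under 0.05 in edgeR), beside 0.339% of all genes.

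Of 10 tested genes in a list of 12 touch- and wound-induced genes outside the calcium sensors, 3 fell in P10 at 16 DAS and none rose, with a median of -1.18, beside 15.8% of all genes called. TCH4, which encodes a cell wall xyloglucan-modifying enzyme, had 2.37 to 4.91 CPM in P10, 13.2 and 133 CPM in P21 and 6.68 to 106 CPM in WT, with a log2 fold change of -4.21 (SE 1.29, adjusted p = 0.040). ERF104, an ethylene response factor gene, had 1.64 to 1.97 CPM in P10, 4.29 and 20.6 CPM in P21 and 14.6 to 46.1 CPM in WT (-3.63, SE 0.77, adjusted p = 0.0046). CAF1a, which encodes a deadenylase, had 3.27 to 4.74 CPM in P10, 6.44 and 13.1 CPM in P21 and 15.6 to 37.2 CPM in WT (-2.49, SE 0.45, adjusted p = 0.00054). Within WT at 16 DAS, replicate 2 was the lowest library both in TCH3 and in TCH4, and within P21 replicate 3 was the lower one in both, and the part of these shifts in the result on TCH3 was not tested. In WT 5 of the 10 rose at 16 DAS relative to 9 DAS (median 1.5), beside 36.0% of all genes called, where TCH3 was at -0.26. None of the 10 was called in P21 at 16 DAS (2 with an unadjusted p under 0.05), in P21 at 9 DAS (none) or in P10 at 9 DAS (1). Of all genes, 0.127%, 5.41% and 0.339% were called there in the same order. The medians of the list were -0.74, -0.6 and 0.11 in that order, against 0.00 to 0.02 over all genes tested. P21 thus also had negative medians. Between P10 and P21 at 16 DAS 1 of the 10 was called, lower in P10, with a median of -0.43, beside 14.9% of all genes.

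**Figure D5:**
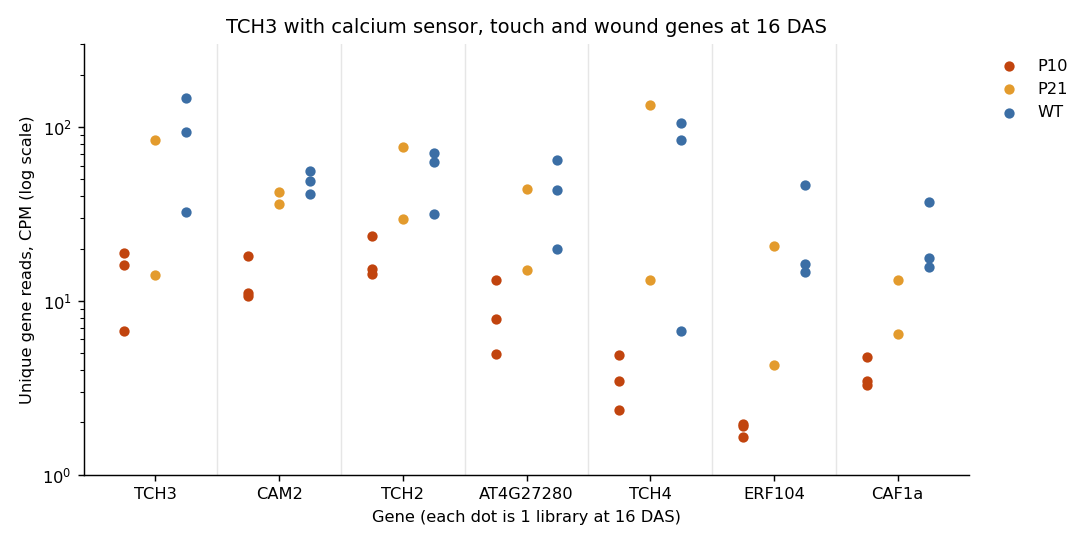
Unique gene reads in CPM on a log axis at 16 DAS of TCH3, 3 calcium sensor genes (CAM2, TCH2, AT4G27280) and 3 touch- and wound-induced genes (TCH4, ERF104, CAF1a) in P10, P21 and WT, with 1 dot per library. P10 libraries lie below all others for each gene except TCH3, where they lie at 6.71 to 18.8 CPM, P21 at 14.1 and 83.6 CPM and WT at 32.4 to 146 CPM.

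Further kinases of the same subfamily and the proteins around PID were compared with WT as well. Of 9 tested genes in a list of 15 other AGCVIII kinases, PHOT2, the blue light receptor phototropin 2, rose in P21 at 9 DAS, with 350 and 359 CPM in P21 against 167 to 200 CPM in WT (0.95, SE 0.16, adjusted p = 0.0018). It was the 1 gene of the 9 called there, beside 5.41% of all genes. None of the 9 was called in P10 at 16 DAS (1 with an unadjusted p under 0.05), in P21 at 16 DAS (none) or in P10 at 9 DAS (2). Of all genes, 15.8%, 0.127% and 0.339% were called there in the same order, and the absence of calls among so few genes is not read as a result. At 16 DAS relative to 9 DAS, 2 of the 9 were called in P10, 1 in P21 and 4 in WT, beside 31.0%, 23.7% and 36.0% of all genes in the same order. In WT PHOT2 rose and, named after their values were seen, AT2G36350, AT2G44830 and KIPK fell. PHOT2 and AT2G44830 were those called in P10, and AT2G44830 that in P21. Of 18 tested genes in a list of 22 substrates and regulators of these kinases, which holds PIN carriers, PP2A subunits, PDK1 and NPY genes, none fell in P10 at 16 DAS. In that comparison 15.8% of all genes were called in either direction. PIN7, an auxin efflux carrier gene, rose there and had 88.4 to 128 CPM in P10, 53.0 and 55.8 CPM in P21 and 55.0 to 59.4 CPM in WT at 16 DAS (0.84, SE 0.24, adjusted p = 0.016). It also rose in P21 at 9 DAS, with 96.9 and 114 CPM in P21 against 41.0 to 73.9 CPM in WT (0.90, SE 0.26, adjusted p = 0.043). In PIN7 the P10 libraries stood above all other libraries of 16 DAS, as in D6PKL3. None of the 18 was called in P21 at 16 DAS or in P10 at 9 DAS (2 with an unadjusted p under 0.05 in each), beside 0.127% and 0.339% of all genes in the same order. The medians of both lists lay between 0.06 and 0.39 in the 4 comparisons with WT, against 0.00 to 0.02 over all genes tested.

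The genes most like each tested member were taken by Pearson's r of log2(CPM + 1) over the 16 libraries, a description in which libraries share genotype, day and library index. For PID they were AT1G19720 (0.904), NF-YA10 (0.849) and AT5G66310 (0.845). NF-YA10, a subunit of a CCAAT-binding transcription factor, had 6.88 to 22.9 CPM in P10, 2.76 and 3.06 CPM in P21 and 0.636 to 2.23 CPM in WT at 16 DAS, and 3.04 to 7.50, 8.25 and 10.4, and 0.492 to 0.943 CPM in the same order at 9 DAS. For PID2 they were CINV2 (0.912), AT5G43020 (0.906) and AT2G24700 (0.904). For D6PK they were AT5G06980 (0.923), which RefSeq also names LNK4, a clock-regulated gene, AT4G27350 (0.917) and AT4G14746 (0.913). D6PKL1 was most like MEE32 (0.841), KEA3 (0.798) and CGA1 (0.794), and D6PKL2 most like AT5G56380 (0.927), AT5G22700 (0.923) and AT4G36270 (0.915). For D6PKL3 they were MAF1 (0.913), SESA5 (0.843) and AT3G01490 (0.819). SESA5, a seed storage albumin gene, had 0.395 to 8.41 CPM in P10 and none in P21 and WT at 16 DAS. PBP1 was most like AT2G41835 (0.813), ATL2 (0.808) and AT4G37660 (0.803), where ATL2 belongs to the touch and wound list. TCH3 was most like AT1G03220 (0.917), AKINBETA1 (0.899) and PYL5 (0.891). Among the members themselves the largest r was 0.612, between PID2 and D6PKL2, followed by 0.595 between PBP1 and TCH3, and the lowest was -0.703, between PID2 and D6PK. PID had r of -0.591 with PBP1 and -0.578 with TCH3.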

How the data were processed

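RNA from first leaf pairs was sequenced on an Illumina platform from poly(A) RNA with a stranded kit. CLC Genomics Workbench v. 6 was the mapping tool that the authors applied, with TAIR10 as genome. Per gene region, the deposited tables hold counts of uniquely placed reads (unique gene reads) and of all placed reads (total gene reads), both whole numbers for 28642 loci. The positions of gene regions were read from the deposited tables, and columns of the authors' own tests, which hold fold changes and p-values, were not used, nor were 415 other per-sample columns. The design text says that reads of 2 lanes were combined, while the column headers name 1 lane each. Of 18 labelled libraries 16 were analysed; P21 replicate 1 of each day was not analysed here. WT columns present in 2 tables (12 pairs) held identical values.

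The test was edgeR 4.0.16's quasi-likelihood test on unique gene reads (R 4.3.3, limma 3.58.1) with filterByExpr, TMM factors, robust quasi-likelihood dispersions and 1 mean per genotype and day (16499 genes kept, 12143 removed, biological coefficient of variation 18.8%, 10 residual degrees of freedom). Benjamini-Hochberg adjustment was made over all genes of each of 11 comparisons, and genes with adjusted p under 0.05 and log2 fold change beyond 0.75 were called. SE is the log2 fold change divided by the square root of F, and 95% intervals take 10 degrees of freedom. These intervals are approximate and can differ from the edgeR p. D6PKL2 in P10 against WT at 16 DAS had an unadjusted p of 0.0486 and an interval of -0.02 to 0.75. Where reads are few, as for PID in WT, the SE can be too small. PID in WT between the days had an unadjusted p of 0.147, larger than its SE of 0.29 implies. Depths of 1193042 to 4695692 reads limit the precision of members with few reads. The floor for a sum of 0 is 3 reads over a group and covers counting error only. P-values measure the spread between the libraries.

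Sequences and gene models came from RefSeq's TAIR10.1 (Python 3.11.15, pandas 2.3.3). All 10 members matched by locus. Of 28009 nuclear loci compared, 0 failed to overlap their RefSeq gene and 50.2% shared a start or an end. Shared runs compare the longest transcript of each gene, and promoters are the 250 bases before each RefSeq gene start.

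The members and gene lists were chosen with earlier results of these data known. The genes named were all members, up to 3 genes of each list with the largest change among those called against WT, the 3 genes most like each tested member, and tissue markers; other genes are named as such. A result on the list of substrates and regulators is not reported here. Alternatives were DESeq2 size factors, DESeq2 1.42.0, no filter, total gene reads, only the groups compared, a replicate block, no fold threshold, 9 DAS without replicate 2 of P10 and WT, and each of 16 libraries left out.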

Additional observations from a re-analysis of the deposited data

Results flagged for a closer look

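The difference of P10 from WT in PID was larger at 16 DAS than at 9 DAS by 1.2 on the log2 scale (SE 0.34, adjusted p = 0.044, edgeR). All 3 P10 libraries had higher PID levels at 16 DAS (747 to 879 CPM) than at 9 DAS (445 to 521 CPM), while those of WT had 3.18 to 4.21 CPM at 16 DAS and 4.71 to 5.91 CPM at 9 DAS. The same change of D6PKL3 was 1.72 (SE 0.49, adjusted p = 0.047), with 13 to 36.3 CPM in P10 at 16 DAS and 6.38 to 12.1 CPM at 9 DAS. Both were marked because the effect of the line differed between the days by a test of that difference. The PID call was lost without any 1 of 13 of the 16 libraries and in DESeq2 (1.21, adjusted p = 0.095; 0.021 to 0.15 over the alternatives), and the D6PKL3 call without any 1 of 14 (0.014 to 0.16). D6PKL3 was also marked because P10 and P21 differed at 16 DAS by 1.4 (SE 0.38, adjusted p = 0.013), with 13 to 36.3 CPM in P10 and 8.32 and 9.20 CPM in P21. WT and P10 carried different library indices at the 2 days, and at 16 DAS all libraries carried the same one.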

How the results depend on the processing

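The 11 comparisons were recomputed under 24 alternatives. Of 1988 member values, 1929 kept their call, 51 were no longer called, 8 became called and 0 reversed. Among those that kept it, 76 that were called under neither setting changed sign. PID of each line against WT was called at both days under every alternative.

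With only the compared groups fitted, 2 members were called in P21 against WT at 9 DAS (TCH3, -1.31, adjusted p = 0.035), 2 between the days in P21 (D6PKL3, -0.91), 0 between the days in WT, where PID2 did not pass the filter, and 1 for the change of P10 between the days. Total gene reads and DESeq2 each gave 1 for that change, and limiting 9 DAS to replicates 1 and 3 in P10 and WT gave 0. No filter gave 1 and DESeq2 1 in P10 against P21 at 9 DAS. No fold threshold gave 2 in P10 against P21 at 16 DAS and 3 between the days in WT. Leaving out single libraries gave 1 to 3 in P10 against WT at 16 DAS, 0 to 1 in P10 against P21 at 9 and at 16 DAS, 0 to 1 between the days in P21 and 0 to 1 for the change of P10.

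Replicate numbers were not taken as pairs. For same-numbered libraries of 2 genotypes, the deviations of all tested genes from their group means were correlated. These correlations lay between -0.276 and 0.0313 at 16 DAS and between -0.176 and 0.477 at 9 DAS. The 3 pairs of replicate 2 at 9 DAS lay at 0.209 to 0.477. Deviations within a group of 2 or 3 libraries sum to 0, so that these values cannot settle whether the replicates were paired. A replicate block within each day gave 2 members called in P10 against P21 at 16 DAS, 0 between the days in P10 and in P21, and 1 for the change of P10. With the block, a difference between the days is taken at replicate 1 of each day, which P21 lacks. Its values between the days are thus another quantity than differences of group means, and cannot show whether those calls hold under pairing. The ranges over the alternatives given for differences between the days include them. Calls lost with it were TCH3 in P10 against WT at 16 DAS (-2.78, adjusted p = 0.094), PID2 (-2.10, 0.19), D6PKL3 (1.05, 0.13) and TCH3 (-2.25, 0.28) between the days in P10, PID between the days in P21 (-1.15, 0.06) and PID in the change of P10 (1.14, 0.062).

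Counts over all genes differed more. The block called 3252 genes between the days in P10 (5117 without it), 844 in P21 (3909) and 17 in P10 against P21 at 9 DAS (6). Its counts between the days compare the levels at replicate 1 and not the group means. Between these lines at 9 DAS DESeq2 called 10 and the fit of only its groups 3. In P21 against WT at 16 DAS (21 called), DESeq2 called 82, only the compared groups 89, no filter 33, DESeq2 size factors 13 and the limited 9 DAS libraries 32. In P10 against WT at 9 DAS (56), DESeq2 called 108 and the limited libraries 22. Leaving out single libraries gave 1 to 51 in P21 against WT at 16 DAS, 16 to 71 in P10 and 267 to 967 in P21 (892) against WT at 9 DAS, 1373 to 2509 (2458) at 16 DAS and 2 to 8 at 9 DAS in P10 against P21, 2322 to 3998 between the days in P21, 480 to 890 (776) for the change of P10 and 51 to 579 (524) for that of P21. The causes were not tested. Members with few reads (WAG1, WAG2, PID2, PBP1) were limited by depth.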
